A study of Arabidopsis thaliana with 4 samples.

Results

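The strongest sites of open chromatin that 4 natural accessions of Arabidopsis thaliana have in common were examined. Peaks of the 4 deposited DNase I-seq lists that touched or overlapped on the 5 nuclear chromosomes were merged into 36153 regions, of which 19642 held a peak in all 4 lists. A region was chosen by its signal rank, the percentile of a peak's signal within its own list with 100 at the top, and had to rank at least 90 in every list. The rule left 1432 regions, 7.29% of those called in all 4 lists and 3.96% of those called in any. They are called strong shared regions below, and all 1432 are counted in every share.

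The accessions were Bay-0, Bur-0, Est-1 and Tsu-1, each with 1 library from whole seedlings 7 days old, and no group was treated. All of them carried the INTACT line UBQ10:NTF::ACT2:birA, in which a nuclear envelope fusion protein and a biotin ligase, driven by the UBQ10 and ACT2 promoters named in the label, tag nuclei for capture. The sources used here do not say whether a line was 1 transformant or a mixture. Seedlings grew in long days (16 h light at 22°C, then 8 h darkness at 20°C), and captured nuclei were cut with 45 units of DNase I for 3 minutes. The labels give Col-0 as the genetic background of every sample although titles and source names give the accession, and the series' text names Tsu-0 in place of the Tsu-1 of the samples. The source names were followed.

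DNase I cuts DNA where nucleosomes are displaced, which happens at promoters and enhancers bound by transcription factors. In Arabidopsis, whose genes lie close together, most such sites stand just upstream of genes. In bulk material, a site open in many nuclei and one open more widely in fewer of them cannot be told apart, and neither can fewer cells of a type and less open chromatin per cell.

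With 1 library per accession differences cannot be set against a replicate spread, and p-values are left out. Sequencing depth is unknown here, so no value carries an error from read counts. Shares are given with 95% intervals (exact, Clopper-Pearson) for counting error alone, and regions are not replicates. The signal scale is the authors' own and differed between lists, with medians of 130 for Bur-0, 155 for Bay-0, 172 for Est-1 and 108 for Tsu-1. Signals are therefore read within a list, as ranks or as multiples of that list's median. Markers of cell types were looked up in the same lists. All 10 mesophyll and photosynthesis markers had a region called in all 4 lists at their ends, as did 6 of 10 root markers, 5 of 6 guard cell and stomata markers, 4 of 7 epidermal ones and 4 of 5 vascular ones found. Over all protein-coding genes, 52.1% had such a region. Of the markers of organs that a seedling lacks, 1 of 4 for pollen and 2 of 7 for seed storage had one. A longer list of 15 pollen genes had 8 (53.3%), near the share of all genes, and one of 15 seed storage and oleosin genes had 5 (33.3%). These marker counts are too small to tell tissues apart. Strong shared regions stood at the small subunit gene RBCS1A, 1 of 10 mesophyll markers, and at MUTE, a regulator of stomatal development, 1 of 6 guard cell and stomata markers. No other marker of these lists had one, and over all protein-coding genes 3.85% did. The RBCS1A region lay 588 bp from that gene and nearer to another, AT1G67080.

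The values that chose the regions are given as a description. A rank of 90 was reached at a signal of 301 for Bur-0, 358 for Bay-0, 410 for Est-1 and 262 for Tsu-1. The strong shared regions made up 56.7% of the Bur-0 peaks at or above that rank, 49.5% of those for Bay-0, 48.3% for Est-1 and 52.3% for Tsu-1. Their median signal was 3.24 times the list median for Bur-0, 3.19 times for Bay-0, 3.30 times for Est-1 and 3.37 times for Tsu-1. Of 4327 regions that ranked at least 90 in any list, 1264 did so in 1 list, 788 in 2 lists, 843 in 3 and 1432, or 33.1%, in all 4. Bur-0 set the lowest rank for 630 of the 1432 regions (44.0%), against 326 for Tsu-1, 297 for Est-1 and 179 for Bay-0. The authors' −log10 p column stops at 324, a ceiling reached by 68.5% of them for Bur-0, 93.9% for Bay-0, 98.5% for Est-1 and 77.6% for Tsu-1, against 6.03 to 13.0% of all peaks.

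Most regions that were strong in 3 accessions were strong in the fourth as well, a measure that a choice on those 3 lists does not use. Of the 1875 regions that ranked at least 90 in the lists other than Bur-0, 97.6% (96.8 to 98.2) had a Bur-0 peak, against 86.9% of all regions called in those 3 lists. Of the same 1875 regions, 76.4% (74.4 to 78.3) ranked at least 90 there too, against 10.3% of all. For Bay-0 that share was 93.8% (92.5 to 95) over a background of 13.4%, 90.1% (88.5 to 91.5) for Est-1 over 13.7%, and 90.6% (89.1 to 92.0) for Tsu-1 over 12.4%. The median rank in the fourth list was 94.9 for Bur-0, 96.9 for Bay-0, 96.7 for Est-1 and 96.5 for Tsu-1, where all regions called in the other 3 had medians of 56.7 to 63.4. Regions strong in 3 lists with no peak in the fourth numbered 45 for Bur-0, 10 each for Bay-0 and Est-1, and 13 for Tsu-1. The Bur-0 interval lies below the other 3, and another 331 regions ranked from 80 to 90 in Bur-0. Bur-0 also has the shortest list, with 25298 nuclear peaks against 27388 to 29699, and the part of list length in this was not tested.

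**Figure D1:**
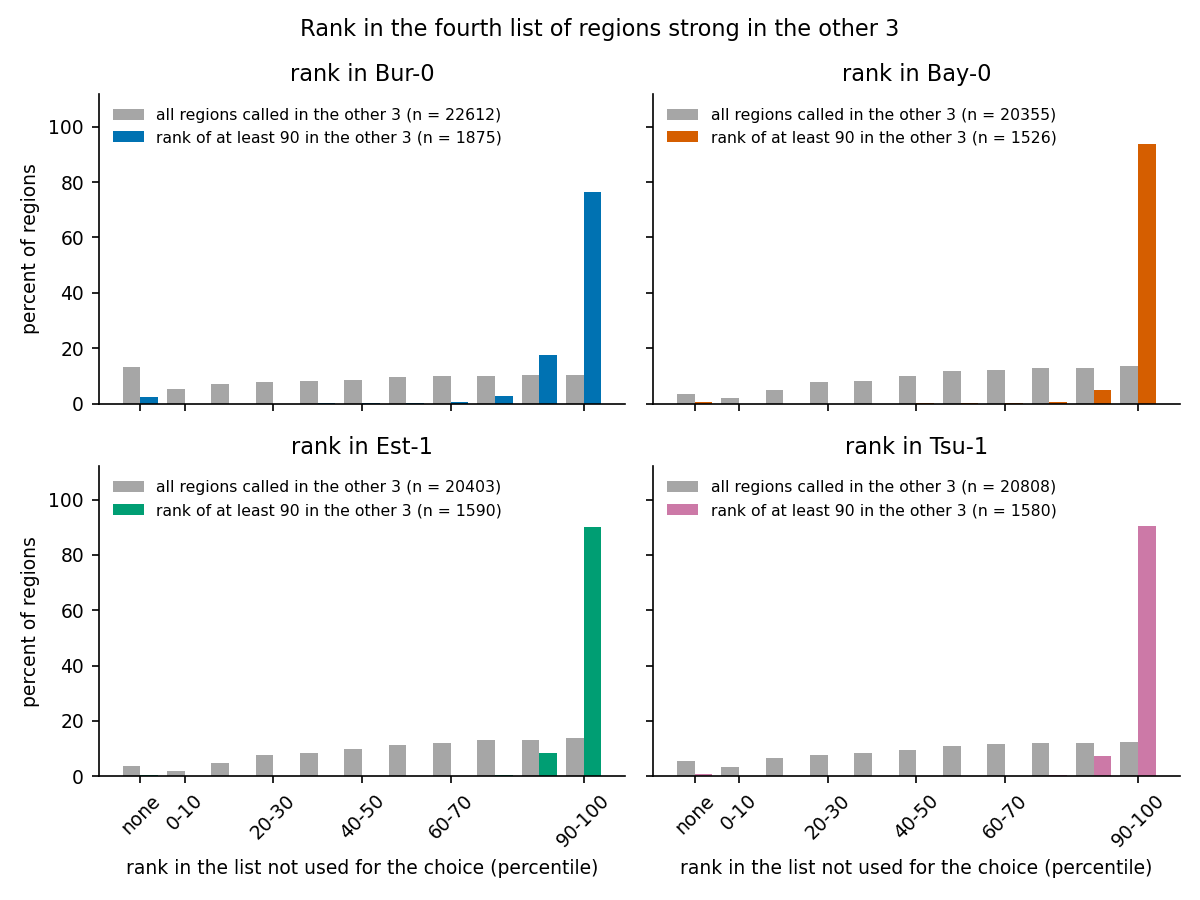
Percent of regions (vertical axis) by their rank in the list not used for the choice (horizontal axis, bins of 10 percentiles, with "none" for no peak), 1 panel per accession. Coloured bars are regions with a rank of at least 90 in the other 3 lists and grey bars all regions called in the other 3. The coloured bars are highest in the top bin, at 76.4% in Bur-0 and 90.1 to 93.8% in the others, while the grey bars spread over all ranks.

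The 25 leading regions, ordered by the lowest of their 4 ranks, stood mostly away from genes. Of these, 18 lay over 1000 bp from every protein-coding gene, 6 at a gene end and 1 in a flank, and their nearest genes were 21 different ones. Signals ran from 4.39 to 58.0 times the list median, and for 23 of the 25 the highest multiple was that of Bur-0. By rank the order was the other way, with Bur-0 lowest of the 4 lists for 21 of the 25. First came a region over AT2G12905, a gene with no symbol (chr2:5296381-5296550), with a signal of 1734 for Bur-0, 2612 for Bay-0, 2388 for Est-1 and 1488 for Tsu-1. It held the highest nuclear signal of the Bay-0 and Tsu-1 lists, and its multiples, 13.3 to 16.9, spanned the 4 lists.

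RAV1, which encodes a growth repressor with AP2 and B3 DNA-binding domains, was the nearest gene of 3 leading regions. The strongest lay 1298 bp from it (chr1:4540681-4540870) and had signals of 1207 for Bur-0, 961 for Bay-0, 1082 for Est-1 and 728 for Tsu-1. The others stood 2478 and 238 bp away. In all 3 regions every signal was at least 4.95 times its list median. TIC, the clock regulator TIME FOR COFFEE, had a region 235 bp from its end (chr3:7912521-7912670) with signals of 1199 for Bur-0, 862 for Bay-0, 968 for Est-1 and 721 for Tsu-1, or 9.22, 5.56, 5.63 and 6.68 times the list medians.

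A region 2418 bp from IAA9, an Aux/IAA protein that holds back auxin responses (chr5:26250841-26250990), had signals of 1072 for Bur-0, 879 for Bay-0, 978 for Est-1 and 728 for Tsu-1. A region 1513 bp from RGA1, a DELLA protein that restrains growth until gibberellin removes it (chr2:259081-259270), had 1067, 961, 1073 and 679 in the same order. RAP2.4, an AP2/ERF transcription factor (chr1:29362941-29363230, 842 bp away), had 945, 851, 1039 and 796. Each of these 12 signals was at least 5.49 times its list median, and Bur-0 had the highest multiple for IAA9 and RGA1, Tsu-1 for RAP2.4.

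Membrane transport, signalling and the chloroplast were represented as well. Leading regions were nearest to CLC-A, the vacuolar nitrate and proton exchanger (chr5:16386781-16387010, 1357 bp), KUP6, a potassium transporter (chr1:26476401-26476550, 1193 bp), STN7, a thylakoid kinase acting on light-harvesting proteins (chr1:25877461-25877670, 1799 bp), and BRG1, a RING-type ubiquitin ligase related to BOI (chr5:18215741-18215910, 2676 bp). AT3G14840, listed with the synonym LysM RLK1-interacting kinase 1, was overlapped by one (chr3:4987861-4988030). The remaining leaders stood nearest to genes without a symbol: AT1G13360, AT1G13370, AT1G69760, AT2G22426, AT5G57330, AT1G26920, AT5G61997, AT4G29905, AT5G03660 and, far from any protein-coding gene, AT3G32980. Apart from AT3G32980, their signals were 5 to 10.6 times the list median for Bur-0 and Tsu-1 and 4.39 to 6.85 times for Bay-0 and Est-1.

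**Figure D2:**
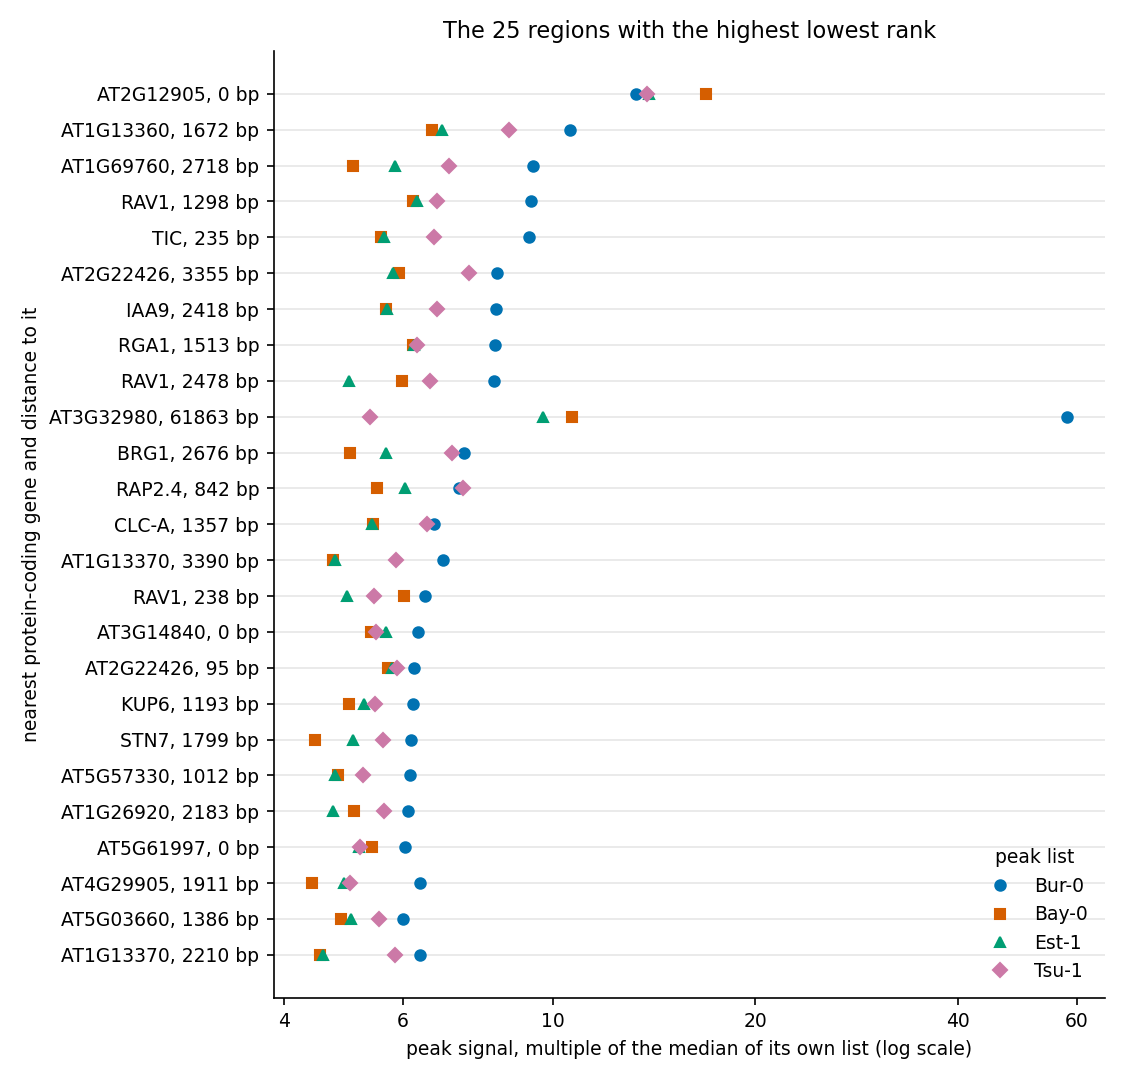
Peak signal as a multiple of the median of its own list (horizontal axis, log scale) for the 25 leading regions, ordered from the top by their lowest rank and named by the nearest protein-coding gene with its distance in bp; each marker is 1 list. 23 of the 25 regions lie between 4.39 and 10.6, the AT2G12905 region lies at 13.3 to 16.9, and the region 61863 bp from AT3G32980 reaches 58.0 in Bur-0 but 5.36 in Tsu-1.

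The most crowded stretch lay on chromosome 1 around RAV1. The 100 kb from 4500001 to 4600000 held 24 strong shared regions, more than any other such bin, and the next held 15. Between GATL3, a galacturonosyltransferase-like gene, and RAV1, a gap of 11945 bp between protein-coding genes held 11 of them (chr1:4531761-4541930), out of 20 regions called in all 4 lists there. A second group filled the 9410 bp between AT1G13360 and AT1G13370, with 6 of 13 (chr1:4580041-4586450), whose lowest ranks ran from 92.3 to 99.9. These gaps are free of protein-coding genes only: the strongest region of the second group overlapped the long non-coding RNA gene AT1G05007, and another lncRNA gene, AT1G05003, was the nearest gene of any kind to several regions of the first. Among all strong shared regions, the GATL3 region at chr1:4527361-4527530 and the AT1G13360 region at chr1:4580981-4581190 were among the 4 whose ranks differed least between lists, by 0.104 and 0.0644 percentiles. Both had a lowest rank of 99.6, and so near the top of the scale at 100 a wide range was not possible.

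**Figure D3:**
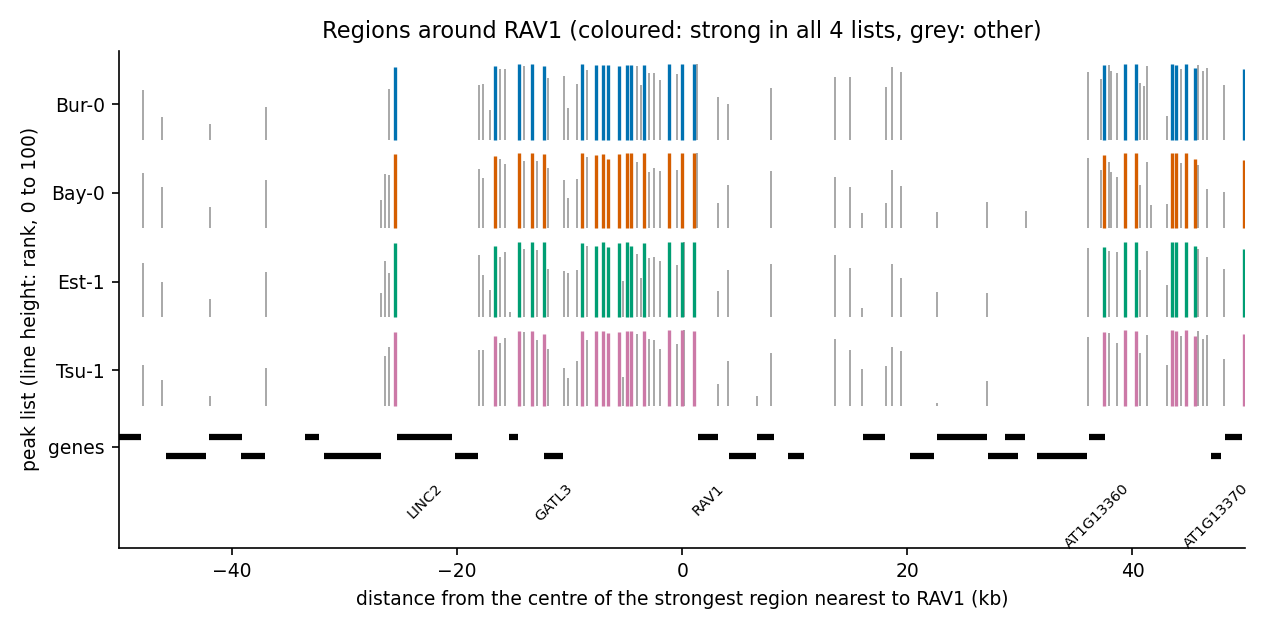
Regions within 50 kb of the centre of the strongest region nearest to RAV1 (horizontal axis, distance in kb), 1 row per list, with the height of each line showing the rank from 0 to 100 and black bars showing protein-coding genes. Coloured lines are the 24 strong shared regions and grey lines other regions; the coloured lines gather in the stretches without protein-coding genes left of RAV1 and right of AT1G13360, at the same places in all 4 rows.

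Other gaps between protein-coding genes also held several. The 1283 strong shared regions whose midpoint lay between such genes fell into 913 gaps, and 30 gaps held 4 or more, 150 regions in all. The gap between WOL, a cytokinin receptor gene, and EXGT-A3, a xyloglucan endotransglucosylase gene, held 8 of its 9 regions called in all 4 lists (chr2:372281-384490). The gap between AT1G69760 and CMT3, a DNA methyltransferase gene, held 7 of 10 (chr1:26240801-26246810). Other gaps held 6: of 9 beside IAA9, of 15 beside HB-7, a homeobox gene induced by abscisic acid, and of 10 between the trihelix factor gene GT2 and the tubby-like gene TLP1. The gap between AT3G41762 and AT3G42050, near rRNA genes, held 6 of 7. Among gaps with 5, the one beside KNAT3, a KNOX homeobox gene, held 5 of 13. Those beside CLC-A and between STN7 and RAV2, a relative of RAV1, held 5 of 6 each. These gaps were picked for their counts after the values were seen.

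Most strong shared regions had no such neighbour. Of the 1432 regions, 598 (41.8%, 39.2 to 44.4) had another strong shared region within 2000 bp, and the median distance to the next one was 3950 bp. Linking regions up to 2000 bp apart gave 1072 runs, of which 834 were single regions and 71 held 3 or more, 18.4% of all strong shared regions. Regions called in all 4 lists, taken at any rank, had another such region within 2000 bp in 68.7% of cases; there are 19642 of them, so these shares are not on one footing.

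Strong shared regions were displaced from gene ends towards the space between genes. Their midpoints lay at a gene end (400 bp or less from it) in 37.6% of cases (35.1 to 40.1), against 57.0% (56.4 to 57.7) of regions called in all 4 lists. They lay 400 to 1000 bp outside a gene in 25.6% (23.3 to 27.9) against 17.0%, and over 1000 bp from any gene in 34.2% (31.8 to 36.7) against 20.1% (19.6 to 20.7). Inside genes, over 400 bp from both ends, were 38 regions, 2.65% (1.88 to 3.62) against 5.85%. Strand is missing from the gene table, and so upstream and downstream sides were not told apart. The shift was graded: from ranks under 10 to ranks of 90 and over, the distal share rose from 14.8% to 34.2% and the share at gene ends fell from 64.7% to 37.6%, with a median distance to the nearest gene of 63.5 bp at the bottom and 588 bp at the top. Among the 82 regions with a lowest rank of at least 99, 41 were distal (50%, 38.7 to 61.3) and 20 at gene ends (24.4%, 15.6 to 35.1). The gap around a strong shared region was also longer, with a median over regions of 3978 bp against 2694 bp for all regions called in the 4 lists. A gap counts here once for each region it holds.

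**Figure D4:**
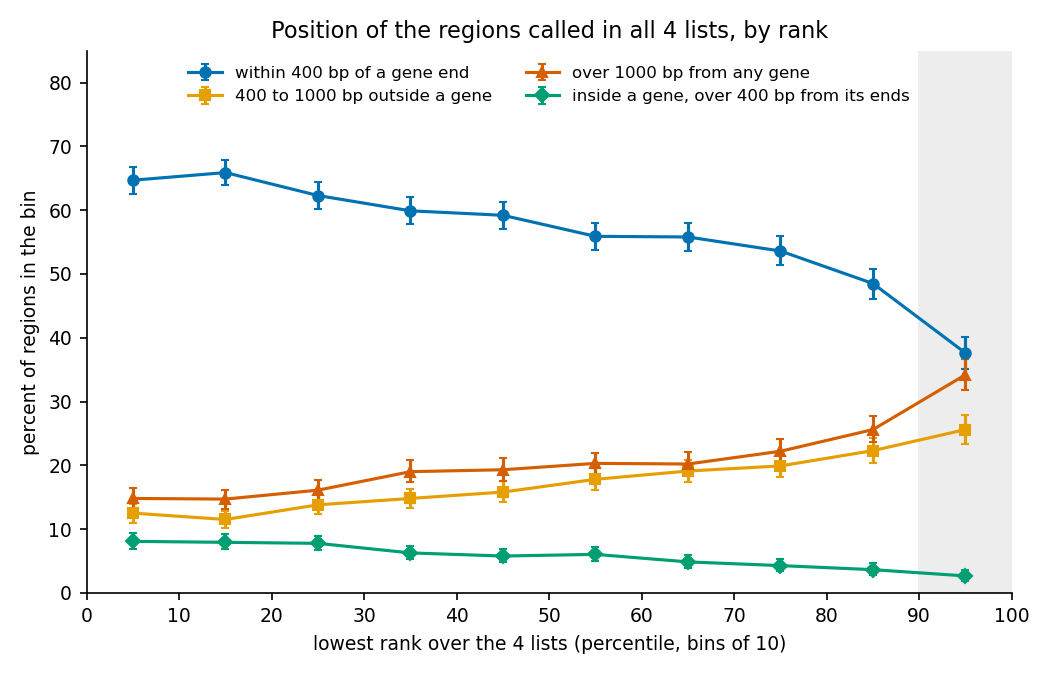
Percent of regions (vertical axis) in each position class by the lowest of the 4 ranks (horizontal axis, bins of 10 percentiles) for the 19642 regions called in all 4 lists, with 95% exact intervals as bars and the strong shared regions shaded. The share at gene ends falls from 64.7% in the lowest bin to 37.6% in the shaded one, while the share over 1000 bp from any gene rises from 14.8% to 34.2%.

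The 4 lists placed the strong peaks close together. Peak starts fell on a grid of 20 bp, so places are known to that step and not to the base. The strongest peaks of all 4 lists began at the same grid step in 36.2% (33.7 to 38.7) of strong shared regions, against 19.6% (19.0 to 20.2) of the other regions called in all 4 lists. The median spread of the starts was 20 bp against 40 bp, a difference of a single step. Merged regions had a median width of 170 bp against 190 bp, where at least 99.9% of single peaks were 150 bp wide. The chromosomes contributed alike: strong shared regions were 7.86% of the regions called in all 4 lists on chromosome 1, 7.10% on chromosome 2, 7.25% on chromosome 3, 6.86% on chromosome 4 and 7.06% on chromosome 5, with overlapping intervals. Gene-poor bins, with fewer than 15 protein-coding genes in 100 kb, held 2.58% of them and 2.41% of all regions in the 4 lists.

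The kinds of non-coding genes differed. No strong shared region overlapped a tRNA, miRNA, snRNA or snoRNA gene, but such overlaps were rare among all regions called in the 4 lists too, with 64 at a tRNA gene (0.326%), 7 at a miRNA gene (0.0356%) and 15 at an snRNA or snoRNA gene (0.0764%). Within 400 bp, 7 strong shared regions had a tRNA gene (0.489%, against 1.07% of all shared regions). A miRNA gene lay that near to 2 (0.140%, against 0.321%) and an snRNA or snoRNA gene to 1 (0.0698%, against 0.540%). Of 3 shared regions that overlapped an rRNA gene, 2 were strong. Long non-coding RNA genes were overlapped by 3.84% of strong shared regions and 3.47% of all shared ones, and were the nearest gene of any kind for 10.5% (9 to 12.3) against 6.73% (6.38 to 7.08). Protein-coding genes were the nearest for 84.0% (82.0 to 85.9) against 88.6% (88.2 to 89.1).

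Some strong shared regions lay far from protein-coding genes or near ribosomal RNA genes. The region at chr3:13591961-13592110 lay 61863 bp from the nearest protein-coding gene, AT3G32980, in a bin with 2 genes per 100 kb. Its signal was 7542 for Bur-0, 1656 for Bay-0, 1664 for Est-1 and 579 for Tsu-1, the highest nuclear value of the Bur-0 list at 58.0 times the median and 5.36 times in Tsu-1. On chromosomes 2 and 3, 9 strong shared regions, none of them among the 25 leading ones, lay within 10 kb of an rRNA gene. In all, 15 regions called in all 4 lists lay that near to one. The 9 were 8 regions next to AT3G41762 (chr3:14195601-14202230) and 1 at chr2:3421-3570. Their median signal was 13.9 times the list median in Bur-0, where signals ran from 1407 to 2624, and 3.90 times for Bay-0, 4.43 times for Est-1 and 3.49 times for Tsu-1. The lowest of their multiples was 10.8 for Bur-0, and the highest in the other 3 lists was 6.07. Over all strong shared regions the median multiples were 3.24 for Bur-0, 3.19 for Bay-0, 3.30 for Est-1 and 3.37 for Tsu-1. The 8 neighbouring regions form 1 stretch and are not separate measurements of an accession. The part of repeated gene copies in these signals was not tested. Without these 9 regions the share of distal regions was 34.0%, and that at gene ends was 37.6% as before.

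Strong shared regions inside genes were led by IDD5, a zinc finger factor of the INDETERMINATE DOMAIN family (chr2:509801-509950), with signals of 784 for Bur-0, 647 for Bay-0, 753 for Est-1 and 542 for Tsu-1. All of its ranks were between 99.4 and 99.6. AT1G78410 (chr1:29503221-29503490), AT1G22490 (chr1:7938621-7938870), HEXO3, a beta-hexosaminidase gene (chr1:24387441-24387590), EDA6 (chr3:8404701-8404850) and PAD4, a lipase-like regulator of immunity (chr3:19432241-19432450), followed with lowest ranks of 98.0, 96.4, 96.2, 96.1 and 95.5. Exons and introns were not told apart.

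By gene, 1057 of 27444 protein-coding genes (3.85%) had a strong shared region in their window (1000 bp outwards and 200 bp inwards of each end), and 1111 (4.05%) were the nearest gene of at least 1. Neighbouring genes can share a region. The window held 1 strong shared region for 925 genes, 2 for 123, 3 for 7 and 4 for TIC and LBD37, a nitrogen-responsive transcriptional repressor. For TIC the lowest ranks were 99.3, 99.8 and 94.3 on one side of the gene and 96.3 on the other. For LBD37 they were 94.0, 98.5 and 94.9 on one side and 97.8 on the other. Genes with 3 were AT1G25550, the neighbouring floral repressor gene TEM1, the G-box bZIP factor gene GBF2, EXGT-A3, the arabinogalactan protein gene FLA9, and the zinc finger factor genes IDD1 and ZF2. AT2G22426 came next among genes with 2, with lowest ranks of 93.1 and 99.7.

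Transcription factor genes, which encode the proteins that bind such sites, were counted first. On 12 lists of factor families, 88 of 751 genes (11.7%, 9.50 to 14.2) had one in their window, against 3.85% of all protein-coding genes. All 33 gene lists together, these 12 among them, had 175 of 1685 (10.4%, 8.97 to 11.9). The 2 intervals overlap, so the higher share was not particular to factor genes. A region called in all 4 lists stood at 71.4% of factor genes and 52.1% of all genes. Of genes with such a region, 16.4% of factor genes had a strong shared one, against 7.39% of all. Without the threshold, the median rank of their best region was 64.6 for factor genes, against 47.6 for all genes. The best rank is the highest over a gene's regions, so it can rise with their number, and it uses the ranks that chose the members. The space around factor genes is also larger, with a median of 4431 bp summed over both sides against 1855 bp. Among all genes the share with a strong shared region rose with that space from 0.893% to 6.30% over 5 groups of genes of near equal size. In those groups, from small to large space, factor genes stood at 8.82%, 3.51%, 10.7%, 8.57% and 15.7%, against 0.893%, 2.91%, 3.66%, 5.48% and 6.30% for all genes, with 2 to 53 factor genes behind each share. By region, 160 of the 1432 (11.2%, 9.59 to 12.9) were nearest to a factor gene, against 6.62% (6.26 to 6.99) of the other shared regions. At gene ends the shares were 9.48% (7.14 to 12.3) against 4.65% (4.26 to 5.07), and among distal regions 13.3% (10.4 to 16.6) against 11.5% (10.5 to 12.6), with overlapping intervals. The lists were made with earlier results of these data known, so these shares describe the lists and test nothing.

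**Figure D5:**
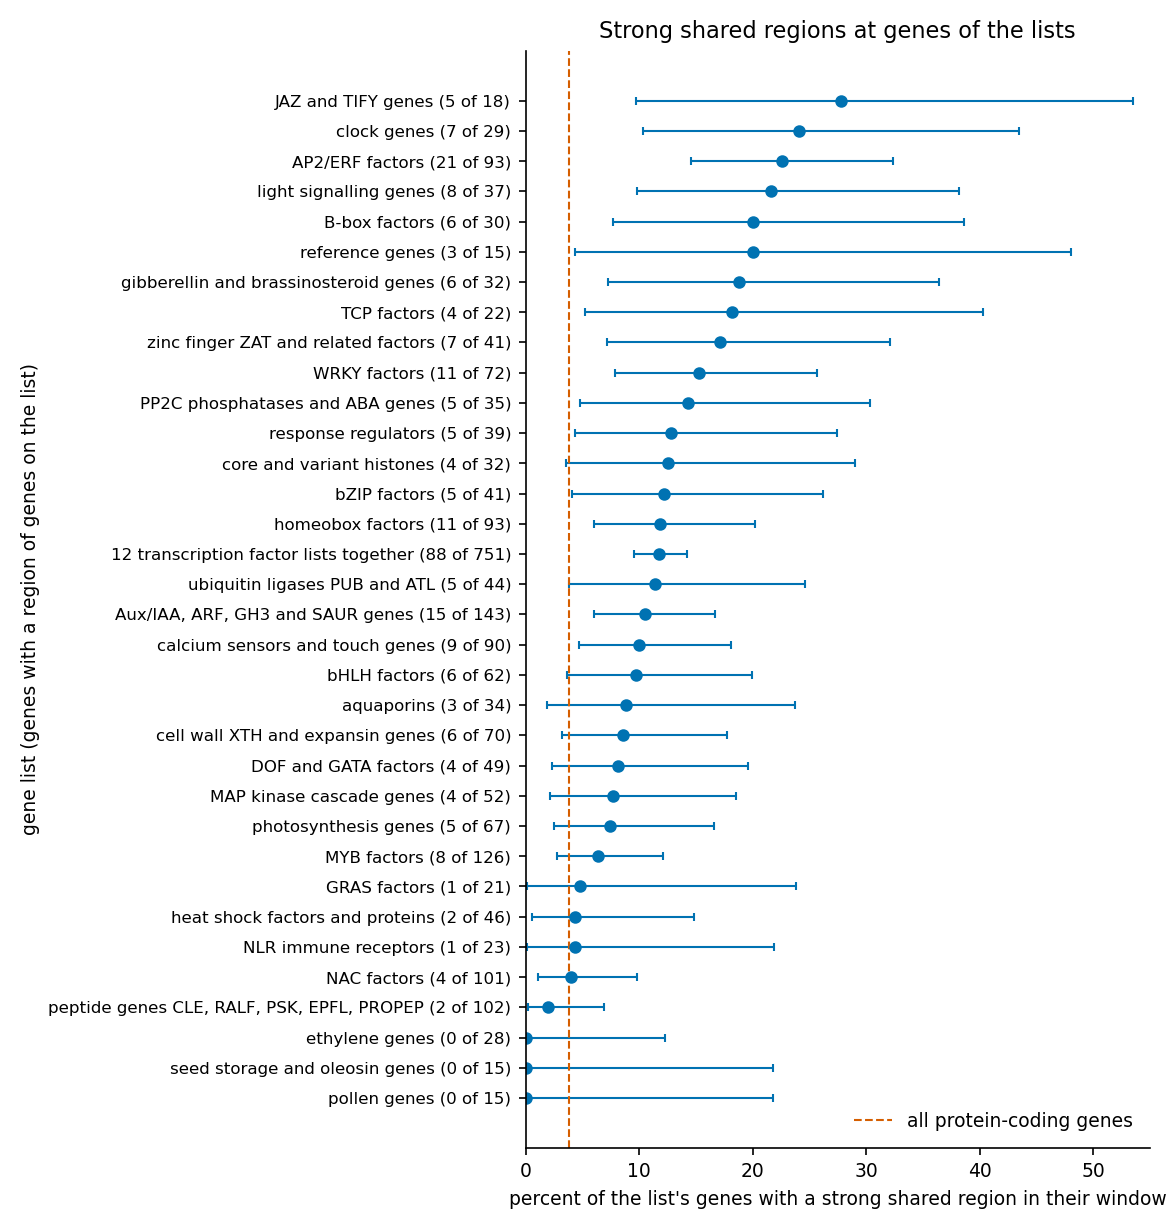
Percent of genes with a strong shared region in their window (horizontal axis) for each gene list, with 95% exact intervals as bars, the counts in the labels and the 3.85% of all protein-coding genes as a dashed line. The JAZ and TIFY list is highest at 27.8% with the widest interval, the AP2/ERF list stands at 22.6% and the 12 factor lists together at 11.7%, and no gene of the ethylene, seed storage or pollen lists has such a region.

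AP2/ERF genes, many of them responsive to ethylene, cold or drought, had 21 of 93 (22.6%, 14.6 to 32.4), with a median best rank of 78.7. Besides RAP2.4 and RAV1 they included ERF15 (lowest rank 98.7), the cytokinin response factor CRF3 (98.2), and the cold regulators DREB1A and CBF1, which lie side by side on chromosome 4 (94.1 and 92.5). WRKY genes, which act in defence and stress, had 11 of 72 (15.3%), led by WRKY47 (99.5), WRKY22 (97.0) and WRKY27 (95.7). Homeobox genes had 11 of 93 (11.8%), with KNAT3 (99.6), HAT22 (98.9) and HB6 (97.0). The WRKY47 region (chr4:744141-744350) ranked 99.5 or 99.6 in each list.

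B-box zinc finger genes, which act in light signalling, had 6 of 30 (20.0%), among them LZF1 (97.6), BBX29 (97.4) and BBX28 (96.2). Zinc finger genes of the ZAT, IDD and CCCH groups had 7 of 41 (17.1%), led by OXS2 (99.5), and TCP genes had 4 of 22 (18.2%), led by TCP14 (96.3). The bZIP list had 5 of 41 and held 3 G-box binding factors, GBF1, GBF2 and GBF3 (96.5, 96.7 and 95.6). The bHLH list had 6 of 62 (9.68%, 3.63 to 19.9). DOF and GATA genes had 4 of 49 (8.16%, 2.27 to 19.6), with GNC, a GATA factor of chloroplast development, at 99.4. MYB genes had 8 of 126 (6.35%), NAC genes 4 of 101 (3.96%) and GRAS genes 1 of 21. The intervals of the bHLH, DOF and GATA, MYB, NAC and GRAS lists include the 3.85% of all genes. Counted by nearest gene in place of the window, MYB genes had 13, GRAS genes 3, RGA1 among them, and homeobox genes 16. On other lists that count was lower than by window, with 6 against 8 for light signalling, 3 against 5 for photosynthesis and 1 against 4 for histone genes. Over all genes the share by nearest gene was 4.05%.

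Clock genes had 7 of 29 (24.1%, 10.3 to 43.5): TIC (99.8), the pseudo-response regulators PRR9 (98.9) and PRR5 (91.8), GI, which times flowering (97.4), AT5G06980, listed as LNK4 (96.0), TCP11, listed as CCA1 HIKING EXPEDITION (95.2), and the blue-light receptor gene FKF1 (94.3). The space around clock genes was small, at a median of 936 bp. Of the 24 clock genes with a region called in all 4 lists, 29.2% had a strong shared one, against 7.39% over all such genes. Light signalling genes had 8 of 37 (21.6%, 9.83 to 38.2), with SPA1, a partner of the COP1 ubiquitin ligase (99.2), the cryptochrome gene CRY1 (97.7), and the phytochrome-interacting factor genes PIF3 (94.3), PIF4 (95.4) and PIL6, also called PIF5 (94.0). The CRY1 region (chr4:5723001-5723170) ranked 97.7 for Bur-0, 99.3 for Bay-0, 99.1 for Est-1 and 99.7 for Tsu-1. Of the 33 light signalling genes with a region called in all 4 lists, 24.2% had a strong shared one. Photosynthesis genes are strongly expressed in seedlings. A region called in all 4 lists stood at 62 of 67 of them. A strong shared one stood at 5 (7.46%, 2.47 to 16.6, which includes the 3.85% of all genes), or 8.06% of those with a shared region, against 7.39% over all genes with one. The 5 were LHCA2 (97.2), RBCS1A (97.1), PSAF (93.3), PSAK (92.3) and LHCA4 (91.7).

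Among hormone pathways, the repressors of jasmonate signalling form a short list, and 5 of 18 JAZ and TIFY genes (27.8%, 9.69 to 53.5) had a strong shared region: JAZ6 (99.3), TIFY10B (96.1), JAZ1 (92.5), TIFY7 (90.9) and JAZ3 (90.7). Genes of gibberellin and brassinosteroid signalling had 6 of 32 (18.8%, 7.21 to 36.4). These were the gibberellin receptors GID1B (98.9) and GID1C (90.2), the brassinosteroid transcription factors BZR1 (97.4) and BES1 (94.7), the kinase BIN2 that inactivates them (96.3), and the co-receptor BAK1 (95.8). The receptor gene BRI1 was the nearest gene of 2 strong shared regions and the biosynthetic gene DWF4 of 1, all outside the gene windows. The DWF4 region overlapped the gene itself, beyond the 200 bp inwards of each end that a window covers. Abscisic acid genes had 5 of 35 (14.3%, 4.81 to 30.3), with the receptors PYL4 (93.8) and PYL5 (95.1) and the phosphatases PP2CA (97.4), HAB1 (95.6) and ABI2 (94.1) that those receptors inhibit. The auxin list had 15 of 143 (10.5%, 5.99 to 16.7), with the response factors ARF6 (99.2) and ARF2 (93.8), the repressors IAA9 (98.9), IAA16 (98.7) and IAA2 (98.6), and several SAUR genes. Response regulators had 5 of 39 (12.8%), including ARR9 (99.1) and ARR4 (93.8), which dampen cytokinin responses. No gene of 28 on the ethylene list had one, although 23 of them had a region called in all 4 lists, and a count of 0 of 28 allows a share of up to 10.7% when the limit is set at 3 counts (12.3% by the exact interval).

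Calcium sensor and touch genes had 9 of 90 (10%, 4.68 to 18.1), most of them CIPK kinases, such as CIPK21 (97.2) and CIPK12 (96.3). Cell wall genes had 6 of 70 (8.57%, 3.21 to 17.7), with the expansin gene EXPA8 (96.8), and ubiquitin ligases of the PUB and ATL groups 5 of 44 (11.4%, 3.79 to 24.6), with PUB9 (98.3). Histone genes had 4 of 32 (12.5%, 3.51 to 29.0), with HTR11 and AT5G65360 sharing the same region. MAP kinase cascade genes had 4 of 52 (7.69%, 2.14 to 18.5) and aquaporins 3 of 34 (8.82%, 1.86 to 23.7). From cell wall genes onwards every interval of these lists includes the 3.85% of all genes. Heat shock genes had 2 of 46, peptide genes 2 of 102 and NLR immune receptors 1 of 23, the last being RPS2, a resistance gene against Pseudomonas (chr4:13223721-13223870), with ranks of 99.7 for Bur-0, 99.8 for Bay-0, 99.6 for Est-1 and 99.3 for Tsu-1. Seed storage and oleosin genes had 0 of 15 and pollen genes 0 of 15, each of which allows a share of up to 20.0% at the same limit of 3 counts (21.8% by the exact interval).

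Of 15 reference genes, UBQ10, ACT2 and TUB2 had a strong shared region (20.0%, 4.33 to 48.1, against 3.85% of all protein-coding genes). The UBQ10 region (chr4:2717441-2717610, 367 bp away) ranked 99.5 for Bur-0, 100 for Bay-0, 99.6 for Est-1 and 99.9 for Tsu-1. The ACT2 region (chr3:6474621-6474790) ranked 98.3, 97.4, 96.7 and 96.2 in the same order. Both promoters are named in the transgene of all 4 lines, and reads from transgene copies would align to the same places; their part was not tested. TUB2, which the transgene label does not name, ranked 92.6, 98.6, 96.5 and 93.1.

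Within the set, ranks differed little between lists, which the threshold of 90 in each partly fixes. The median range between the highest and lowest rank of a region was 3.04 percentiles. The widest were at HXK2, a hexokinase gene (chr2:8570441-8570590), with ranks of 90.1 in Bur-0 and 98.2 to 99 elsewhere, AT1G54050 (chr1:20180421-20180650), at 99 in Bur-0 and 90.2 in Est-1, AT4G34760, listed as SAUR50 (chr4:16586961-16587130), and PUB23, a ubiquitin ligase gene of immune signalling (chr2:15084661-15084810), the last 2 lowest in Bur-0. The threshold itself falls in a dense part of the lists. The last 5 regions inside it, nearest to AT1G13460, PUB25, CLC-B, AT5G02240 and AT5G49390, had a signal of 410 in Est-1 (the first) or 358 in Bay-0 (the others) as their deciding value. The first 5 outside, nearest to AT1G02660, AT1G32690, AT1G68500, AT3G50570 and AT1G70750, missed it with 300 in Bur-0 (the first 4) or 409 in Est-1 (the last).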

How the data were processed

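DNase I-seq peak lists of 4 libraries, 1 per accession and named by their source label, were used. The submitters' processing notes name Bowtie 0.12.7 and the TAIR10 build. Of the peak caller, depth and read filters nothing is given in the sources used here. The signal of a peak, as deposited by the authors, is a whole number on a scale of their own. The deposited −log10 p column is the authors' value per peak, with a ceiling of 324.

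Peaks on the nuclear chromosomes were merged where they touched or overlapped, and a region took the strongest peak of each list. Signals were turned into percentiles of their own list, called ranks, with tied values given their average rank. Signals were not compared between lists. A region was assigned by its midpoint to a gene end (within 400 bp), a gene interior, a flank (within 1000 bp) or distal sequence, while printed distances run from the region's edge to the nearest gene. Coordinates are those of the lists, counted from 1.

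Gene names, positions and kinds were taken from RefSeq (gene table for TAIR10.1). The table's coordinates were used only for distances and checked by sliding regions over gene ends, where the best shift was at most 50 bp on each chromosome. It carries no strand, exons or sequence, so the planned shares at gene starts and motif shares were not run and no sequence is shown. Gene lists (33, with 1685 genes) were matched on symbols and synonyms, and wrong matches were removed by gene name afterwards; a list of ribosomal protein genes was dropped because its patterns matched other genes. VND6 pairs with another gene in the table and was left out of the vascular markers.

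The members and lists were chosen with earlier results of these data known. Named genes follow a rule: the first 25 regions by lowest rank, the first 6 inside genes and the first 6 distal, the 10 genes with most strong shared regions, the 4 widest and 4 narrowest rank ranges, the last 5 inside and first 5 outside the threshold, and listed genes. Genes beside gaps, near rRNA genes or in the crowded bin were named after their values were seen. Merging, ranks, positions, windows and neighbours were tested on simulated lists with known answers. Python 3.11.15, pandas 2.3.3, numpy 2.4.6, scipy 1.17.1 and matplotlib 3.10.9 were used. The alternatives tried were other ranks, ties, merging, list lengths, overlaps, windows and leaving out 1 accession.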

Additional observations from a re-analysis of the deposited data

Results flagged for a closer look

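The chloroplast genome, which the comparisons leave out, held peaks far above the nuclear level in every list. All of its peaks had a signal at or above that of nuclear rank 90, 225 for Bur-0, 252 for Bay-0, 248 for Est-1 and 242 for Tsu-1, with median signals of 16731, 16578, 15134 and 10284. No mitochondrial peak reached that level. These were marked because they are signal in data outside the main measurement.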

How the results depend on the processing

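Moving the rank threshold changed the set most. At a rank of at least 80 there were 3250 regions, 43.7% at gene ends, 29.4% distal and 49.8% with another within 2 kb. These stood at 2464 of 27444 protein-coding genes and 336 of 1685 list genes. At a rank of at least 95 there were 615 regions, 33.5% at gene ends, 1.3% inside genes, 38.2% distal and 33.5% with another within 2 kb. These stood at 437 of the 27444 protein-coding genes and 88 of the 1685 list genes. Where the strongest peaks had to overlap by at least 50% of their width, 33.9% had another within 2 kb. With a gene end of 200 bp the share there was 25.3%, against 45.7% of all shared regions, and 5.94% of regions lay over 3000 bp from any gene, against 3.53%. Of 52 values under alternatives other than leaving out an accession, 36 stayed within the main interval or within 1.5 times the main count, and so did all 24 values with 1 accession left out. Those 4 settings gave 1522 to 1872 regions, 37.6 to 39.8% at gene ends, 32.7 to 33.8% distal, 2.35 to 2.90% inside genes, 41.7 to 44.2% with another within 2 kb and 1120 to 1386 genes; the highest counts were without Bur-0. Leaving out regions near rRNA genes and tying regions to list genes by nearness (208 genes, against 175) were chosen after seeing the data. The alternatives for shares at gene starts and for motifs were not run, since strand and sequence were not used here. No paired analysis was possible because each accession has 1 library and the replicate number is only a name.

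With 1 library per accession, unknown depth and an unnamed peak caller, neither the spread between plants nor the error of a rank can be given. Distances rest on protein-coding genes without strand, and a nearest gene need not be the one a region acts on.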
